A study of Mus musculus with 29 samples.

Results

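The comparison set the expression level of each gene in CA1, a field of the hippocampus, against its level in the anterior cingulate cortex (ACC). Genes were taken where the authors' deposited tables of context-exposed against naive mice listed them for both regions, which was the case for 14859 of the 15672 genes in the deposited gene tables. The level of a gene in a region was its base mean, a normalised read count that the authors averaged over the libraries of a comparison. The measure used throughout is the log2 ratio of the CA1 base mean over the ACC base mean, centred on the median of 12315 genes with a base mean of at least 50 in both regions, so that 0 stands for the typical gene and positive values are higher in CA1. The centring moved each ratio by 0.08 on the log2 scale. Counts of genes were made over the 12623 genes whose mean of the scaled base means was at least 50.

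All mice were male, of the strain written C56BL/6 in the labels, 3 months old and housed singly, and the labels name no transgene or deletion. The ratio rested on 20 of the 29 RNA-seq libraries, 10 per region. In CA1 these were 5 libraries of naive mice and 5 of mice killed 1 h after they met a new chamber without a shock. In ACC they were 5 libraries of naive mice and 5 of mice killed 4 weeks after the same exposure. The other 9 libraries came from mice that received a 0.7 mA footshock in that chamber, with 4 libraries of CA1 at 1 h and 5 of ACC at 4 weeks, and they served as a repeat. Only polyadenylated RNA was sequenced. The tables hold 1 mean per gene and comparison, so there is no value per library, no SD over mice, no library depth and no test between regions here. In trained mice, region and time after training differ together and cannot be told apart. The labels do not say whether CA1 and ACC came from the same mice, and fewer cells of a type and less RNA per cell cannot be told apart in bulk tissue.

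CA1 is the output field of the hippocampal circuit. Its principal cells are pyramidal neurons packed in a thin layer, which receive input from CA3 and from the entorhinal cortex and are needed for forming memories of places and contexts. The ACC is a layered frontal cortex, with upper-layer neurons that project within the cortex and deep-layer neurons that project to the striatum, thalamus and other subcortical targets, and it takes part in the recall of older memories. Both regions hold glutamatergic projection neurons, GABAergic interneurons and the same classes of glia.

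Promoter sequences from RefSeq (GRCm38.p6, 250 bases before to 50 bases after the gene start, 5′ to 3′ on the gene's strand) are shown for 4 genes near the ends of the ratio, 2 of them rich and 2 poor in CG dinucleotides. Capitals mark CG dinucleotides and the letters TATAAA. Fibcd1, a receptor-like protein that binds acetylated sugars, had the highest ratio among genes with a mean level of at least 1000 (chr2:31845956-31846255, minus strand), and its window holds 46 CG dinucleotides.
Fibcd1: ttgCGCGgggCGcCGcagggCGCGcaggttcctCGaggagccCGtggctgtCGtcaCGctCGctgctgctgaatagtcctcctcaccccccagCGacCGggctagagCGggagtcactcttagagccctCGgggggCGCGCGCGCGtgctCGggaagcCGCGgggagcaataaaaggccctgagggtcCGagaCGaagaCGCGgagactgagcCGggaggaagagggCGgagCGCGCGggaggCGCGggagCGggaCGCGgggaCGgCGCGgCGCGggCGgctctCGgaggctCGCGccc
Agt encodes angiotensinogen, the precursor of angiotensin peptides, which astrocytes make in the brain. It had the fewest CG dinucleotides for its base composition among the 15 highest ratios with a promoter in the table (chr8:124569657-124569956, minus strand), with 1 CG and a TATAAA that starts 30 bases before the gene start.
Agt: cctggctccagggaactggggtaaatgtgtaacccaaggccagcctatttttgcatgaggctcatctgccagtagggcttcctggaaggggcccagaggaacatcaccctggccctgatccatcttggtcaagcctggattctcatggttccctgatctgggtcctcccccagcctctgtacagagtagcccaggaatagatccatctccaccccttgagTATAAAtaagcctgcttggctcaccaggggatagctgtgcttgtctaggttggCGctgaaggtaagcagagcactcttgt
Tnnc1, the troponin C of slow and cardiac muscle, was the poorest in CG among the corresponding 15 lowest ratios (chr14:31208062-31208361, plus strand), also with 1 CG.
Tnnc1: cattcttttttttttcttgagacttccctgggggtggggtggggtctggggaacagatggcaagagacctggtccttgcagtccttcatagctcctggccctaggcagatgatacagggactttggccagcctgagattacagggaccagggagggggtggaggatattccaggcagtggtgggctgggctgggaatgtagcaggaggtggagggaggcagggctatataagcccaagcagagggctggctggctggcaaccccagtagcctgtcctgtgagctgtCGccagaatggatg
Rasgef1c, an exchange factor for Ras-type GTPases, was the richest in CG among the same 15 (chr11:49901585-49901884, plus strand), with 37 CG.
Rasgef1c: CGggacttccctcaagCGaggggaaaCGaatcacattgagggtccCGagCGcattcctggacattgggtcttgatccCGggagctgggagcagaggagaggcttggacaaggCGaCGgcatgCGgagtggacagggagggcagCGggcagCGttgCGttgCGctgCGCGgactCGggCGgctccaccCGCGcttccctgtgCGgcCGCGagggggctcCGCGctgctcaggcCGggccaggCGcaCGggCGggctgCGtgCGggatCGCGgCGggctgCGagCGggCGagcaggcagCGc
The ratio of observed to expected CG was 1.14 for Fibcd1, 0.989 for Rasgef1c, 0.0446 for Agt and 0.0432 for Tnnc1.

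Most genes differed little between CA1 and ACC. Of the counted genes 68.3% had a log2 ratio within 0.25 of 0 and 87.5% within 0.5, and the median distance from 0 was 0.15. At least 2-fold higher in CA1 were 194 genes, which is 1.54% of those counted, and at least 2-fold higher in ACC were 246, or 1.95%, so that 3.49% were past 2-fold in either direction. A log2 ratio of 2 or more was reached by 47 genes in CA1 and by 56 in ACC, and a log2 ratio of 3 or more by 23 in CA1 and 10 in ACC. Among genes listed for both regions, the far end of the distribution thus held more CA1-high than ACC-high genes. The 2-fold line was passed by more genes on the ACC side. Genes listed for 1 region only have no ratio and are in none of these counts. Of the 194 CA1-high genes 186 were protein-coding and of the 246 ACC-high genes 233, beside 12268 of the 12623 counted genes. An interval for each ratio was implied from the deposited p-values, with a median error of 0.06 on the log2 scale. It covers the spread among libraries within the naive and the context group of a region, not a difference between those groups. It holds no error of dissection, extraction or batch between regions.

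**Figure D1:**
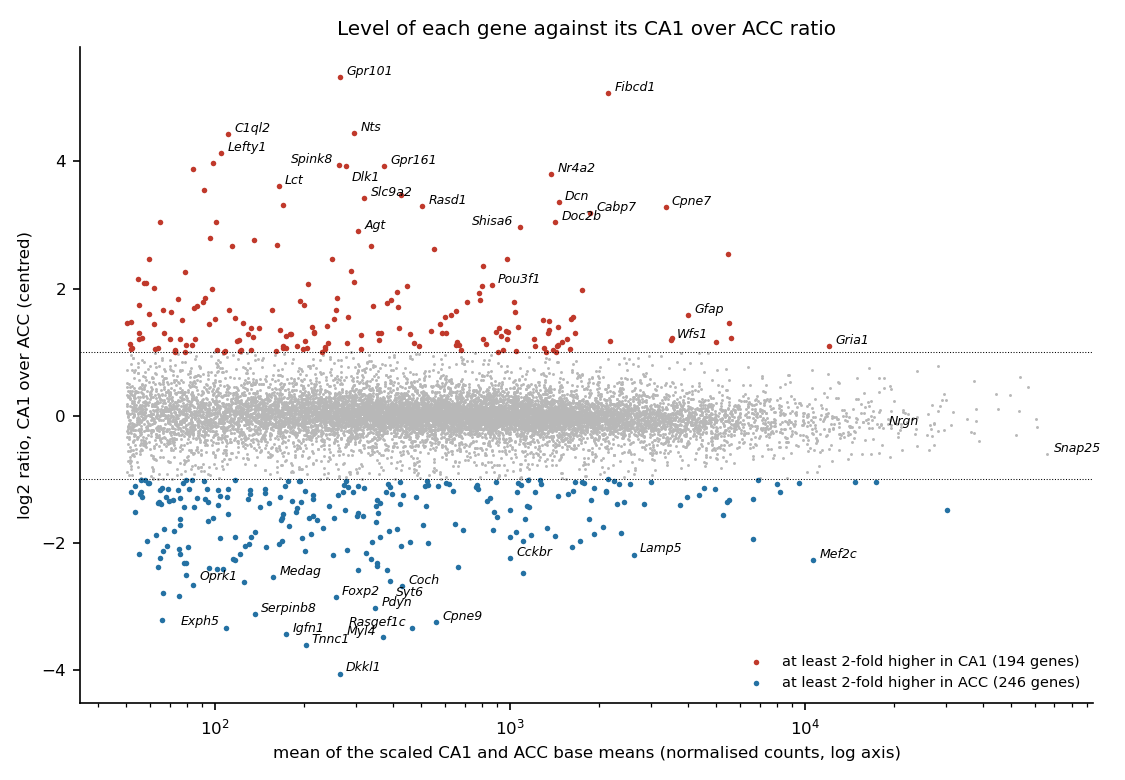
Each point is a gene, with the mean of its scaled CA1 and ACC levels (normalised counts, log axis) across and its centred log2 ratio of CA1 over ACC up; red marks the 194 genes at least 2-fold higher in CA1 and blue the 246 at least 2-fold higher in ACC. Most points lie between the dotted 2-fold lines, and genes past the lines occur at low, middle and high levels.

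The region ratio was measured again in sets of libraries that share none. Because each table gives a base mean and a fold change, the levels of naive, context and shock libraries could be separated. The naive level that came out of the 2 tables of a region differed by a median of -0.012 in CA1 and -0.13 in ACC on the log2 scale. Shock levels were rescaled by that median. Around it the SD was 0.0036 in CA1 and 0.0093 in ACC. In naive libraries alone 189 genes (1.5%) were at least 2-fold higher in CA1 and 261 (2.07%) in ACC. In context libraries the numbers were 261 (2.07%) and 260 (2.06%), and in shock libraries 249 (1.97%) and 312 (2.47%). Of the 194 CA1-high genes 190 had a positive ratio in all 3 sets and 132 were at least 2-fold in each of them. Of the 246 ACC-high genes 245 had a negative ratio in all 3 sets and 188 were at least 2-fold in each. Over all counted genes the shares at least 2-fold in each set were 1.05% for CA1 and 1.49% for ACC, and these are the same genes, so nothing is read from setting the numbers side by side. Naive and context libraries take part in the ratio that chose these genes, so those 2 sets are not independent of the choice; the shock libraries are, and they gave the same direction for 191 of 194 and 246 of 246 genes. Across the counted genes, which are not independent replicates, the correlation of the ratio was 0.82 between naive and context libraries, 0.76 between naive and shock libraries and 0.89 between context and shock libraries. The median SD of a gene's ratio over the 3 sets was 0.13. The implied error is for the main ratio with 10 libraries per region. Each set holds fewer libraries and the sets differ in training, so the SD and that error are not compared.

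**Figure D2:**
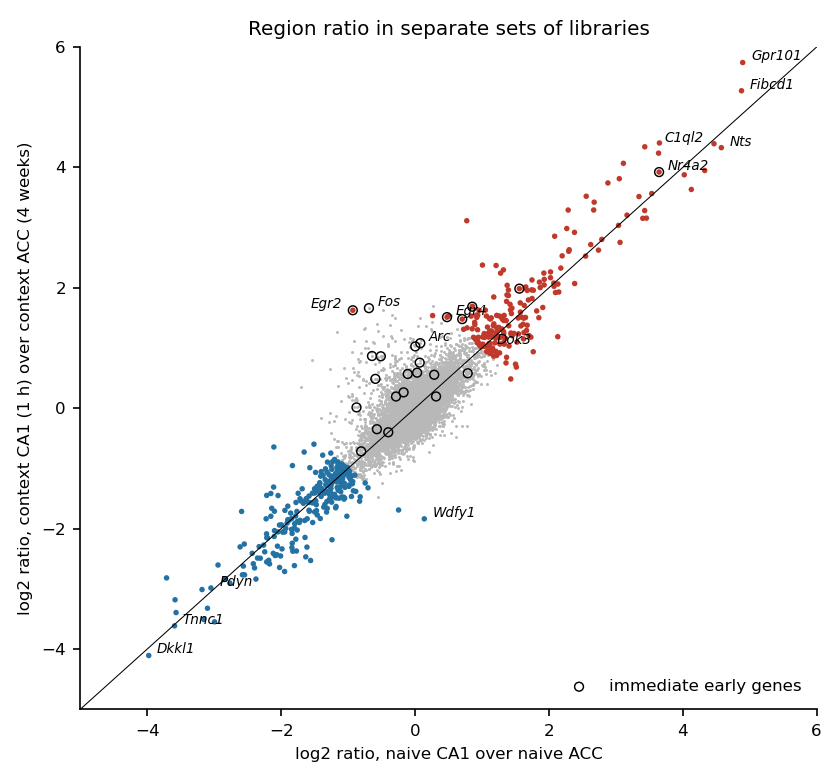
Each point is a counted gene, with its log2 ratio of CA1 over ACC in naive libraries across and in context libraries (CA1 at 1 h, ACC at 4 weeks) up; red and blue mark genes at least 2-fold higher in CA1 or ACC, circles mark immediate early genes and the line marks equal values. Gpr101, Fibcd1, Dkkl1 and Tnnc1 lie near the line, while Egr2, Fos and Wdfy1 lie far from it.

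The highest ratios are described first, as values of the genes that the ratio itself picked out. Gpr101, an orphan G-protein-coupled receptor (chrX:57496668-57503757, mm10), had scaled levels of 434, 602 and 533 in naive, context and shock libraries of CA1 and of 14.6, 11.3 and 10.2 in ACC. Its log2 ratio was 5.33 (95% interval 4.98 to 5.67). Among genes listed for both regions with a mean level of at least 100, that ratio was the highest. Every CA1 level of Gpr101 was far above every ACC level. Fibcd1 (gene at chr2:31813290-31846005) stood at 3960, 4401 and 4850 in CA1 and at 135, 114 and 114 in ACC. That is a log2 ratio of 5.07 (4.91 to 5.24), with an SD of 0.28 over the 3 sets of libraries. The neuropeptide gene Nts, for neurotensin (chr10:102481760-102490418), had levels of 580, 551 and 680 in CA1 against 24.3, 27.4 and 24.4 in ACC, a log2 ratio of 4.45 (4.20 to 4.70). C1ql2 encodes a secreted C1q-like protein that binds synaptic partners (chr1:120340582-120343171). It had 180, 243 and 222 in CA1 and 8.13, 11.6 and 11.3 in ACC, a log2 ratio of 4.42 (4.00 to 4.85); the ACC level lies near the lowest base mean the tables list.

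The rest of the 15 highest ratios lay between 3.29 and 4.12. They included Lefty1 (4.12), an antagonist of Nodal signalling, Spink8 (3.95), a Kazal-type peptidase inhibitor, Dlk1 (3.92), a membrane protein related to Notch ligands, and Gpr161 (3.92), a receptor of primary cilia that restrains hedgehog signalling. Nr4a2, an orphan nuclear receptor and transcription factor (chr2:57106830-57124003), had 2301, 2835 and 2854 in CA1 and 184, 187 and 170 in ACC, a ratio of 3.79 (3.62 to 3.97). Lct (3.60), which encodes lactase, Slc9a2 (3.43), a sodium-proton exchanger, Dcn (3.35), the proteoglycan decorin, and Rasd1 (3.29), a Ras-related protein induced by glucocorticoids, followed. The remaining members are the lincRNA genes AC129605.1 (3.47) and AC123702.1 (3.31), which carry no annotated role.

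The lowest ratios, again picked out by the ratio itself, belonged to genes of varied kinds. Dkkl1, a secreted protein related to the Dickkopf family (chr7:45207525-45211883), had scaled levels of 29.0, 31.2 and 27.7 in naive, context and shock libraries of CA1 and of 458, 538 and 599 in ACC. Its log2 ratio was -4.05 (95% interval -4.30 to -3.80). Among genes listed for both regions with a mean level of at least 100, that ratio was the lowest. Tnnc1 (gene at chr14:31208312-31211729) had 30.4, 31.1 and 34.8 in CA1 and 368, 381 and 340 in ACC, a ratio of -3.61 (-3.85 to -3.36). Myl4, a myosin light chain of embryonic muscle and atrium (chr11:104550663-104595753), had 57.4, 64.1 and 66.6 in CA1 and 682, 675 and 696 in ACC, a ratio of -3.48 (-3.69 to -3.27). All ACC levels of these genes were well above all CA1 levels, and Myl4 varied little among the ACC groups.

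Pdyn encodes prodynorphin, the precursor of the dynorphin peptides, and Oprk1 encodes the kappa opioid receptor on which those peptides act. Pdyn (chr2:129686565-129699844) had 69.8, 83.4 and 87.2 in CA1 and 579, 662 and 645 in ACC, a log2 ratio of -3.02 (-3.28 to -2.75). Oprk1 (chr1:5588493-5606131) had 36.8, 33.4 and 39.1 in CA1 and 191, 239 and 222 in ACC, a ratio of -2.62 (-2.87 to -2.36). Ligand precursor and receptor thus both had higher levels in ACC in each of the 3 sets. Foxp2, a forkhead transcription factor of deep-layer neurons (chr6:14901349-15441977), had 61.1, 64.3 and 54.5 in CA1 against 438, 462 and 427 in ACC, a ratio of -2.84 (-3.07 to -2.62). The others among the 15 lowest were Igfn1 (-3.42), Rasgef1c (-3.33), the Rab27 effector gene Exph5 (-3.33), the copine gene Cpne9 (-3.24), the peptidase inhibitor gene Serpinb8 (-3.11), Coch (-2.67), an extracellular matrix protein, the synaptotagmin gene Syt6 (-2.60), Medag (-2.53) and C130074G19Rik (-2.47). Igfn1 had the largest SD over the 3 sets among these 15 genes, 0.77, with a level of 13.3 in shock libraries of CA1 against 33.1 in naive ones.

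**Figure D3:**
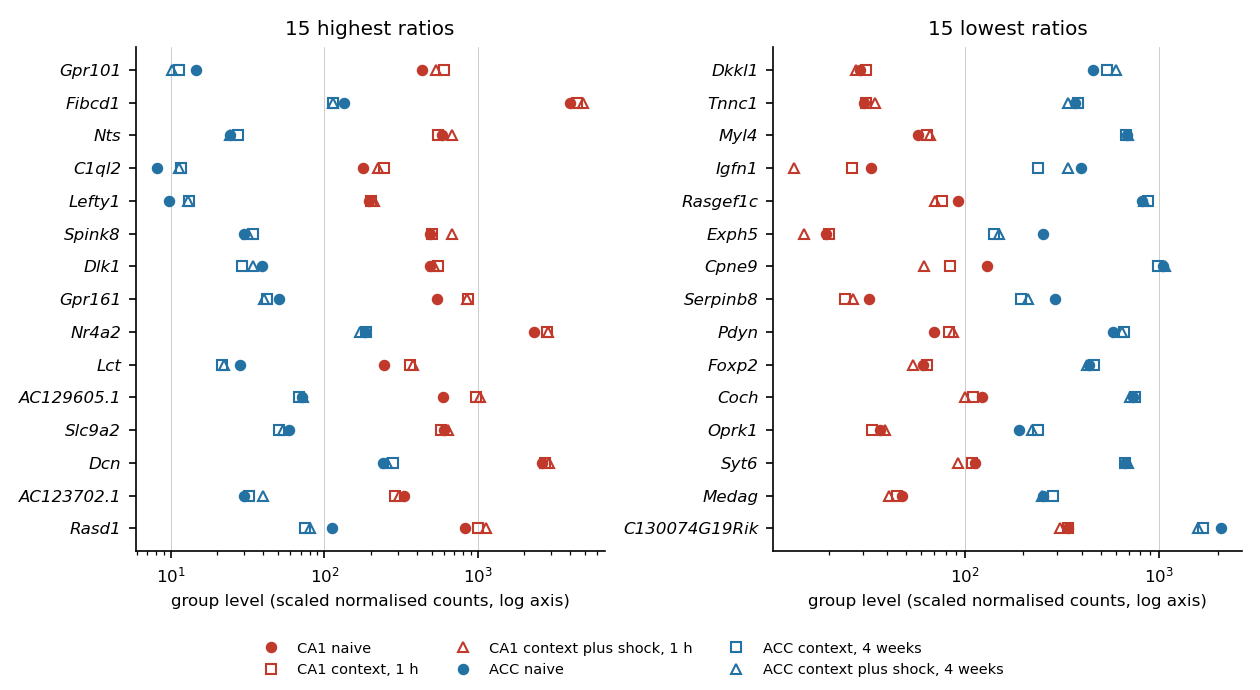
Scaled normalised count (log axis) in each of the 6 groups for the 15 highest and the 15 lowest ratios. These were taken among genes listed for both regions with a mean level of at least 100. Red is CA1 and blue ACC, filled circles are naive, squares context and triangles context plus shock. The genes were chosen by these levels, so the gap between red and blue points is given by the choice; it runs from Gpr101 (CA1 434 to 602, ACC 10.2 to 14.6) to Dkkl1 (CA1 27.7 to 31.2, ACC 458 to 599).

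Among abundant genes the ACC side held Mef2c, an activity-dependent transcription factor that shapes synapse number (chr13:83504034-83667079). Its levels were 3924, 3399 and 2813 in CA1 and 18841, 16462 and 14530 in ACC, and its ratio was -2.27 (-2.39 to -2.15). Lamp5, a membrane protein of upper-layer and some GABAergic neurons, had 956, 941 and 905 in CA1 and 4401, 4191 and 4098 in ACC, a ratio of -2.18 with an SD of 0.02 over the 3 sets. Cckbr, the cholecystokinin B receptor, had 370, 328 and 290 in CA1 and 1490, 1801 and 2049 in ACC, a ratio of -2.24. On the CA1 side Cabp7, a calcium-binding protein, had 3172, 3570 and 3693 in CA1 and 353, 387 and 414 in ACC, a ratio of 3.19 with an SD of 0.03. The imprinted gene Nnat, neuronatin, had 8636, 10009 and 9576 against 1477, 1738 and 1825, a ratio of 2.54. These 5 genes are named for their high level and their ratio, and the values are a description.

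Some genes were listed for 1 region only. In the tables of context-exposed mice, 264 genes were listed for CA1 and not for ACC, and 411 for ACC and not for CA1; as the tables list no gene with a base mean under about 10, most lie near that limit, with medians of 12.5 and 13.8. Only 12 of the CA1 genes and 14 of the ACC genes had a base mean of at least 50. In the authors' deposited table for CA1 the highest were Ndst4, a heparan sulfate sulfotransferase (base mean 418), Slc9a4, another sodium-proton exchanger (248), and the desmosomal cadherin Dsc3 (163). Dsp, for desmoplakin, which is a marker of dentate granule cells, had 79.0 in the authors' deposited table for CA1. In the authors' deposited table for ACC the highest were Trbc2, a T cell receptor constant segment (338), Mylk3, a cardiac myosin light chain kinase (174), Krt80, a keratin (146), Tgm3, a transglutaminase (117), and Ighg2c, an immunoglobulin constant segment (106). The T cell genes Cd6 (71.3) and Cd4 (56.6) were also listed for ACC only in the authors' deposited table of context-exposed mice. In the authors' deposited table of the shock comparison the other region was listed for Ndst4 (10.985), Slc9a4 (10.7), Tgm3 (11.35) and Cd6 (11.2). No fold is given for genes of this kind, because in the context comparison the level in the other region is not known.

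Markers of the labelled tissues were then read. Of 20 CA1 pyramidal neuron markers all were counted, 10 (50%) were at least 2-fold higher in CA1 and 1 (5%) in ACC, beside 1.54% and 1.95% of all counted genes, and the median log2 ratio was 1.03, beside -0.0015 for all counted genes. Apart from the leaders given above, Pou3f1, a POU transcription factor, had a ratio of 2.05, Nr3c2, the mineralocorticoid receptor, 1.98, Wfs1, the endoplasmic reticulum protein wolframin, 1.19, Zbtb20, a zinc-finger factor that sets hippocampal identity, 1.15, and Itga8, an integrin subunit, 1.08. Wfs1 stood at 4715, 5034 and 4521 in CA1 and at 1873, 2409 and 2375 in ACC, so it was well expressed in both regions. Below 0 were 3 members, among them Bok (-0.73) and Dkk3 (-0.52). Most markers thus lay on the side the CA1 label gives, with these 3 exceptions, but the list shares genes with those that led the ratio. This list, like the other lists here, was also chosen with earlier results of these data known, so its shares are a description. Of 14 counted genes of hippocampal fields in general 3 were at least 2-fold higher in CA1, namely Cabp7, the LIM factor Lmo1 (1.55) and Zbtb20, and none in ACC (median 0.36).

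Markers of neighbouring hippocampal fields were past 2-fold on both sides. Of 22 counted CA2 and CA3 markers 4 (18.2%) were at least 2-fold higher in CA1 and 4 (18.2%) in ACC, beside 1.54% and 1.95% of all counted genes, with a median of -0.11. Cpne7, a copine of the CA2 and CA3 list, had 6500, 5703 and 5892 in CA1 and 615, 641 and 824 in ACC, a ratio of 3.28, while Coch (-2.67) and the calmodulin-binding peptide gene Pcp4 (-1.62) of the same list were higher in ACC. Of 21 counted dentate granule cell markers 2 were at least 2-fold higher in CA1, C1ql2 and Lct, and 4 in ACC, with a median of -0.42. Prox1, the homeobox factor that defines granule cells, had 390, 535 and 526 in CA1 and 301, 291 and 274 in ACC, a ratio of 0.64, and is also carried by interneurons. Tdo2, a tryptophan dioxygenase of granule cells, had 28.9, 39.2 and 37.5 in CA1 and 27.8, 31.9 and 24.7 in ACC, levels that overlapped. The summed level of the dentate list was 11940 to 12940 in the CA1 groups and 17440 to 18750 in the ACC groups. Whether cells of these fields took part in the CA1 values was not tested.

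Markers of cortical layers were past 2-fold on both sides. Among 23 counted upper-layer markers 10 (43.5%) were at least 2-fold higher in ACC and 3 (13%) in CA1, beside 1.95% and 1.54% of all counted genes, with a median log2 ratio of -0.46. The Wnt agonist gene Rspo1 had the lowest ratio (-2.78), with levels of 16.2, 17.5 and 11.4 in CA1 and 125, 107 and 126 in ACC. Wnt9a, a Wnt ligand (-2.25), Lamp5, the lipid-transfer domain gene Stard8 (-2.04), Otof (-1.60), a calcium sensor of release, Penk (-1.51), the enkephalin precursor, Pou3f2 (-1.27) and Cux2 (-1.06), a homeobox factor of upper layers, were on the same side. The 3 exceptions were Mdga1 (2.63), an adhesion protein that binds neuroligins, the sodium channel subunit gene Scnn1a (1.5), and Wfs1, which is on the CA1 list too. Among 37 counted deep-layer markers 9 (24.3%) were at least 2-fold higher in ACC and 3 (8.11%) in CA1, beside the same background, with a median of -0.28. Besides Myl4, Foxp2, Oprk1 and Syt6, these were Adcyap1 (-1.98), the precursor of the peptide PACAP, Hs3st2 (-1.79), a heparan sulfate sulfotransferase, Sulf1 (-1.67), a sulfatase of the same polymer, Pcp4, and Tbr1 (-1.36), a T-box factor of layer 6. Those higher in CA1 were Nr4a2, the repressor Bcl6 (1.32) and Hsd11b1 (1.14), an enzyme that regenerates corticosterone. Bcl11b (0.89) and Fezf2 (0.53), factors of subcortically projecting layer 5 neurons, were below the 2-fold line and positive in all 3 sets.

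Markers of areas that border the dissected tissue also differed. Of 25 counted markers of striatum, septum and thalamus 7 (28%) were at least 2-fold higher in ACC and 5 (20%) in CA1, beside 1.95% and 1.54% of all counted genes. The ACC side held the striatal genes Adora2a (-2.41), an adenosine receptor, Drd1a (-1.53) and Drd2 (-1.19), dopamine receptors, and Ppp1r1b (-1.23), the phosphatase inhibitor DARPP-32. Ppp1r1b had 940, 931 and 919 in CA1 and 1816, 2574 and 2626 in ACC, and Adora2a had 28.9, 38.5 and 31.3 against 118, 241 and 235. Both genes had lower levels in naive than in trained libraries of ACC. The CA1 side held Slc17a6 (2.35), the vesicular glutamate transporter of thalamic and other subcortical neurons, the cation channel gene Trpc4 (1.93), Ntng1 (1.65), the diacylglycerol kinase gene Dgkg (1.29) and Cbln1 (1.01). Slc17a6 had 1387, 1326 and 1295 in CA1 and 302, 230 and 230 in ACC. The summed level of this list was 12470 to 12710 in the CA1 groups and 13100 to 14050 in the ACC groups, and its part in the ratios was not tested.

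**Figure D4:**
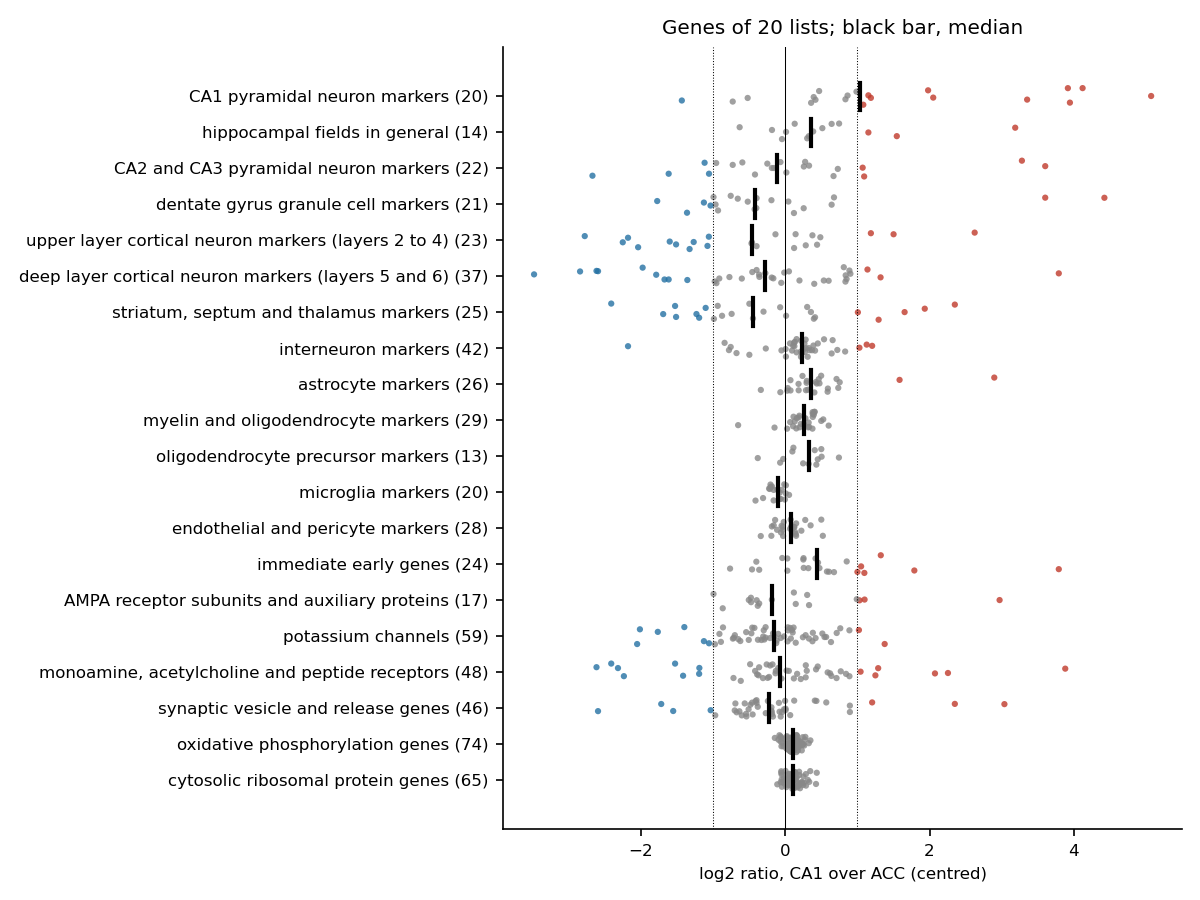
Each point is a counted gene of 20 gene lists, placed by its centred log2 ratio of CA1 over ACC, with the number of genes in parentheses, the list median as a black bar and the 2-fold lines dotted. CA1 pyramidal neuron markers have a median of 1.03 and upper-layer cortical markers of -0.46, while the 74 oxidative phosphorylation genes and 65 ribosomal protein genes stay inside the 2-fold lines.

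Of all counted genes 3.49% were past 2-fold, and of the 4 lists of glial and vascular markers given here only the astrocyte list held any that were. Of 26 astrocyte markers 24 were above 0, with a median log2 ratio of 0.36, and 2 were at least 2-fold higher in CA1. Agt (gene at chr8:124556534-124569706) had 529, 546 and 484 in CA1 and 63.4, 81.0 and 65.9 in ACC, a ratio of 2.90 (95% interval 2.70 to 3.10). Gfap, the intermediate filament of astrocytes, had 6016, 5990 and 6024 in CA1 and 2022, 1982 and 2054 in ACC, a ratio of 1.58 with an SD of 0.02 over the 3 sets. The general astrocyte genes Slc1a2 (0.07), the main glutamate transporter, and Aldh1l1 (0.03) were close to 0, and Aqp4, the water channel, was at 0.32. Of 29 myelin and oligodendrocyte markers 27 were above 0 and none was at least 2-fold in either direction (median 0.26); Mbp, myelin basic protein, was at 0.32. Of 20 microglia markers 17 were below 0, none past 2-fold (median -0.10). Of 28 endothelial and pericyte markers none was past 2-fold either; the median was 0.08, and it was -0.05 in naive, 0.17 in context and 0.48 in shock libraries. In CA1 the summed level of the astrocyte list was 190400 to 201200 and in ACC 153300 to 165200.

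Of 42 interneuron markers 34 were above 0, with a median log2 ratio of 0.23. At least 2-fold higher in CA1 were 3 (7.14%), beside 1.54% of all counted genes. They were the calcium sensor gene Syt2 (1.2), Crhbp (1.13), which binds corticotropin-releasing hormone, and Nos1 (1.03), neuronal nitric oxide synthase. In naive libraries Syt2 stood at 0.92, Crhbp at 0.89 and Nos1 at 0.99, all short of 2-fold. Sst, somatostatin, had 6042, 6442 and 6605 in CA1 and 3855, 3714 and 4108 in ACC, a ratio of 0.72, and Pvalb, parvalbumin, was at 0.45. The peptide genes Vip (-0.76), Npy (-0.68), Tac2 (-0.78) and Crh (-0.84) lay on the ACC side, and Lamp5 was the only interneuron marker at least 2-fold higher in ACC.

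AMPA receptors are tetramers of Gria subunits with auxiliary proteins that set their trafficking and gating. Of 17 genes of this group 3 (17.6%) were at least 2-fold higher in CA1 and none in ACC, beside 1.54% and 1.95% of all counted genes. Shisa6, an auxiliary protein that keeps receptors at synapses (chr11:66211725-66525964), had 1757, 2061 and 2092 in CA1 and 276, 210 and 218 in ACC, a log2 ratio of 2.97 (2.83 to 3.11). Gria1, the GluA1 subunit (chr11:57011387-57330244), had 15509, 17406 and 19493 in CA1 and 7679, 7682 and 7559 in ACC, a ratio of 1.10 (1.01 to 1.19). Gria2 (0.15), Gria3 (-0.36) and Gria4 (-0.47) were below the 2-fold line. Among the auxiliary genes Cacng8 (1.03) and Cnih2 (0.99) were higher in CA1, and Cacng3 (-0.87) and Gsg1l (-0.99) were higher in ACC. Of the 15 NMDA, kainate and delta receptor genes none was past 2-fold; the lowest was the kainate subunit gene Grik3 (-0.81). Grin2a had a ratio of -0.30 in naive, 1.5 in context and 1.47 in shock libraries, so its main value of 0.56 averages sets that disagree. Of 14 GABA receptor genes 1 was past 2-fold, Gabrd (-1.29), the delta subunit of extrasynaptic receptors, with 470, 519 and 478 in CA1 and 1132, 1283 and 1334 in ACC. Gabra5, the alpha5 subunit that is abundant in the hippocampus, was at 0.91.

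Of 59 potassium channel genes 6 (10.2%) were at least 2-fold higher in ACC and 2 (3.39%) in CA1, beside 1.95% and 1.54% of all counted genes. In each of the 3 sets of libraries 4 were at least 2-fold higher in ACC and 1 in CA1. The shares over all counted genes were 1.49% and 1.05%. The list median was -0.33 in naive, 0.02 in context and 0.02 in shock libraries. The ACC side held Kcnv1 (-2.05), a silent subunit that modifies Kv2 channels, Kcnh4 (-2.01) and Kcnh1 (-1.77) of the ELK and EAG families, Dpp10 (-1.40), an auxiliary subunit of Kv4 channels, Kcnj2 (-1.13), an inward rectifier, and Kcnq5 (-1.06), an M-current subunit. Kcnv1 had 694, 567 and 648 in CA1 against 2874, 2360 and 2140 in ACC. The CA1 side held Kcng2 (1.38), another silent subunit, and Kcnn2 (1.02), an SK channel of the afterhyperpolarization. Among 35 sodium, calcium and HCN channel genes Trpc4 and Ryr3 (1.21), a ryanodine receptor, were past 2-fold in CA1 and Scn4b (-1.25), a sodium channel beta subunit, in ACC.

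Of 48 receptors for monoamines, acetylcholine and peptides 6 (12.5%) were at least 2-fold higher in CA1 and 8 (16.7%) in ACC, beside 1.54% and 1.95% of all counted genes. Those higher in CA1 were Tacr3 (3.88), the neurokinin 3 receptor, the serotonin receptor genes Htr4 (2.26) and Htr2c (1.25), the neuropeptide Y receptor gene Npy2r (2.08), the dopamine receptor gene Drd5 (1.29) and Adra2c (1.04), an alpha2 adrenoceptor. Tacr3 had 172, 144 and 137 in CA1 and 9.82, 11.6 and 11.1 in ACC. Those higher in ACC were Oprk1, Adora2a, Adra1b (-2.32), an alpha1 adrenoceptor, Cckbr, Drd1a, Htr2a (-1.42), and Drd2 and the somatostatin receptor gene Sstr2 (-1.19 each). Adra1b had 118, 118 and 110 in CA1 and 560, 615 and 681 in ACC. The serotonin receptors Htr2a and Htr2c, which share their coupling to Gq, thus had opposite ratios: Htr2a had 119, 146 and 141 in CA1 and 425, 282 and 255 in ACC, and Htr2c had 1302, 1321 and 1464 against 519, 584 and 475.

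Of 46 genes of synaptic vesicles and release 34 were below 0, with a median log2 ratio of -0.22. Snap25, a SNARE protein of the release machinery, had 55229, 49868 and 51500 in CA1 and 78074, 81535 and 73981 in ACC, a log2 ratio of -0.60. Past 2-fold on the ACC side, 8.7% of the list beside 1.95% of all counted genes, were Syt6, Doc2a (-1.72), Stx1a (-1.55), the syntaxin of the same complex, and Slc30a3 (-1.03), the zinc transporter of vesicles. Past it on the CA1 side, 6.52% beside 1.54%, were Doc2b, Slc17a6 and Syt2. Doc2b, a calcium sensor related to Doc2a (chr11:75768966-75796049), had 2224, 2834 and 2831 in CA1 and 270, 345 and 351 in ACC, a ratio of 3.04 in naive, 3.04 in context and 3.01 in shock libraries. Slc17a7, the vesicular glutamate transporter of cortical and hippocampal projection neurons, had a ratio of -0.54. In the calcium and cAMP signalling group 44 of 63 genes were below 0 (median -0.20), 6 (9.52%) were past 2-fold in ACC, among them Rgs6 (-1.85) and Rgs4 (-1.20), regulators of G-protein signalling, and 1 (1.59%) in CA1, Dgkg. Camk2a, the alpha subunit of the kinase CaMKII, was at -0.17.

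Some pairs of related genes had very different ratios. Of 47 pairs with both members counted, 18 had ratios that differed by at least 2-fold. The share over other pairs of counted genes was not taken, so nothing is read from that number about related genes. The ratios had opposite signs in 23 pairs; of all counted genes 6283 lay above 0 and 6339 below, so nothing is read from that number. C1ql2 and C1ql3 differed by 5.55 on the log2 scale, with C1ql2 at 4.42 and C1ql3 at -1.13. Pou3f1 and Pou3f2 differed by 3.32, and the difference was 3.33, 3.31 and 3.36 in naive, context and shock libraries. Cpne7 and Cpne4 stood at 3.28 and -0.59, Slc17a6 and Slc17a7 at 2.35 and -0.54, Cbln4 and Cbln2, secreted synaptic organisers, at 1.85 and -0.99, and Sema3e and Sema3a, secreted guidance cues, at 1.00 and -1.57. Among the corticosteroid receptors, the mineralocorticoid receptor gene Nr3c2 had 2580, 3013 and 3496 in CA1 and 712, 706 and 661 in ACC, while Nr3c1, the glucocorticoid receptor gene, was at -0.20. In other pairs 1 member was near 0, as in Foxp1 (-0.15) and Foxp2 (-2.84) or Mef2d (-0.15) and Mef2c (-2.27). The pairs were chosen by name and family, and how reads of near-identical stretches were assigned is not known here.

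**Figure D5:**
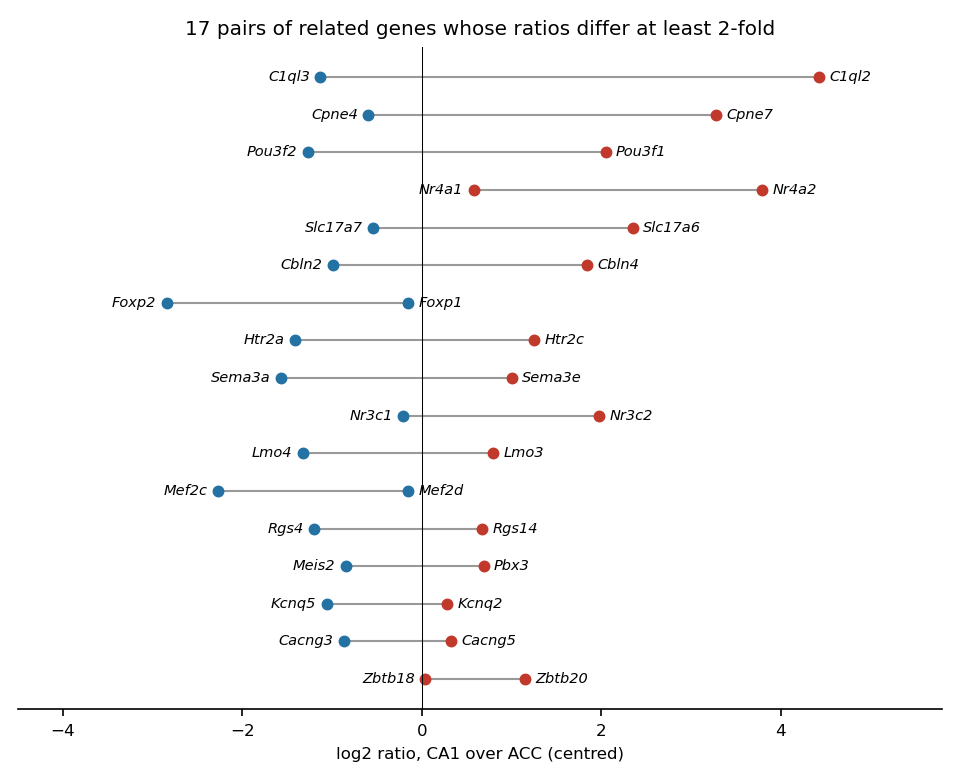
Centred log2 ratio of CA1 over ACC for 17 of the 18 pairs of related genes whose ratios differ by at least 2-fold, each pair joined by a line, red above 0 and blue below. The widest pair is C1ql2 (4.42) and C1ql3 (-1.13), and most pairs straddle 0.

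Immediate early genes, transcribed soon after a neuron fires, had ratios that depended on the libraries used. Of 24 counted genes 6 (25%) were at least 2-fold higher in CA1 and none in ACC, beside 1.54% and 1.95% of all counted genes, with a median of 0.44, but the median was -0.05 in naive, 0.67 in context and 0.47 in shock libraries. Egr2, a zinc-finger factor (chr10:67535475-67542188), had 23.4, 187 and 172 in CA1 and 44.6, 60.6 and 81.5 in ACC; its ratio was 1.00, with -0.93 in naive and 1.63 in context libraries. Fos went from -0.69 in naive to 1.66 in context libraries in the same way, with 154, 687 and 645 in CA1 and 249, 217 and 352 in ACC. The other CA1-high members were higher in CA1 in naive libraries too: Nr4a2 had 3.65 there, Fosl2, a Fos-related factor, 1.56, the orphan nuclear receptor gene Nr4a3 0.85, and the transcription factor genes Junb and Egr4 0.70 and 0.48. In the context and shock libraries the CA1 mice were killed 1 h and the ACC mice 4 weeks after training, so region and time cannot be told apart there, and the naive values are the ones at a matched state.

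In all, 62 CA1-high and 58 ACC-high genes, Egr2 among them, fell short of 2-fold in at least 1 set of libraries. The 4 cases described next are among the widest and were chosen after their values were seen. Wdfy1, an endosomal adaptor protein (chr1:79702262-79776143), had 364, 308 and 294 in CA1 and 331, 1102 and 851 in ACC, so its ratio was 0.14 in naive, -1.84 in context and -1.54 in shock libraries. Cd59a, an inhibitor of complement, had 67.8, 69.7 and 66.3 in CA1 and 80.5, 225 and 173 in ACC. Mir5105 had 658, 295 and 245 in CA1 and 126, 70.2 and 291 in ACC, and its ratio went from 2.38 in naive to -0.25 in shock libraries. Pcsk1n, a proprotein convertase inhibitor, had 3260, 2797 and 1931 in CA1 and 1354, 1337 and 1740 in ACC. Its ratio was 1.27 in naive, 1.06 in context and 0.15 in shock libraries. For Wdfy1 and Cd59a the naive libraries stood apart from both trained sets, and for Mir5105 and Pcsk1n the shock libraries stood apart from the naive and context sets; no test of these differences could be made.

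None of 74 counted oxidative phosphorylation genes and none of 65 counted ribosomal protein genes was past 2-fold, beside 3.49% of all counted genes, a share too small for lists of this size to read anything from those zeros. Their medians were 0.11 and 0.10; in naive libraries they were 0.26 and 0.27, and in context libraries -0.0041 and -0.04, so these small offsets moved with the libraries. The 20 commonly used reference genes had a median of -0.07, from -0.42 for the tubulin gene Tubb5 to 0.29 for the RNA polymerase gene Polr2a. Across genes the rank correlation of the ratio with transcript length was -0.02 in the main ratio, -0.26 in naive, 0.18 in context and 0.17 in shock libraries, and with GC content 0.21, 0.18, 0.19 and -0.20. These correlations are a description and what underlies them was not tested. Their part in the ratios was not tested beyond the trend removal reported at the end.

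Fewer promoters of genes past 2-fold were rich in CG dinucleotides than promoters of counted genes in general. A promoter was found for 133 CA1-high, 157 ACC-high and 9343 counted genes. An observed over expected CG ratio of at least 0.6 was found in 47.4% of the CA1-high and 52.2% of the ACC-high promoters, beside 74.9% of all. The letters TATAAA, searched on both strands, were in 11.3%, 12.1% and 6.48%, and the E-box letters CAGCTG in 25.6%, 19.1% and 15%. The E-box letters CATCTG were in 18%, 12.1% and 10.9%. The CRE motif was in 1.5%, 2.55% and 3.29%, the MEF2-type motif in 2.26%, 1.91% and 2.88%, and the NRF1-type motif in 0.752%, 0% and 2.14%. These last motifs lay below the background on both sides, on few promoters. For each feature both sides of the ratio thus differed from the background in the same direction, with shares that were not always close. These are descriptions of the letters in the window, with no test.

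The 2-fold line cuts a continuous distribution. Among genes with a mean level of at least 1000, those just inside it on the CA1 side were Ppfia4 (1.00), Fgfr1 (1.01) and Kcnn2 (1.02), and those just outside were Cnih2 (0.99), Nov (0.99) and Slc24a3 (0.98). On the ACC side Nlk (-1.0), D1Ertd622e (-1.0) and Osbpl1a (-1.01) were just inside, and Gsg1l (-0.99), Pcdh10 (-0.99) and Plcb4 (-0.98) just outside. Genes on either side of the line are not distinct in kind.

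The deposited calls for training among region-high genes are given for completeness, since the tables share libraries with the ratio and nothing is read from them. With the authors' deposited table of CA1 after context, 34 of 194 CA1-high and 10 of 246 ACC-high genes had an adjusted p under 0.05 (DESeq2, named in the submitters' notes), beside 9.09% of all counted genes. In the authors' deposited table of CA1 after shock the numbers were 44 and 29, beside 6.71%. In the authors' deposited table of ACC after context they were 38 and 73, beside 22.6%, and after shock 62 and 127, beside 48.6%.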

How the data were processed

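RNA was extracted from CA1 or ACC with Tri Reagent and libraries were made with a TruSeq v2 kit, per the labels' protocols. Per the submitters' processing notes, CASAVA 1.8.2, STAR 2.3.0e, SAMtools and DESeq2 were used with the mouse build mm10; their roles, the gene annotation, the counter and the counting strand are not given in the sources used. Antisense and overlapping genes may therefore share reads.

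The authors deposited 4 gene tables whose columns, per the file headers, are a base mean, which is a signal of normalised counts that the authors averaged over the libraries compared, a log2 fold change of trained against naive mice and its raw and adjusted p-value. The 4 deposited exon tables were not used. The direction of fold changes, which the headers do not state, was checked from the base means of the 2 tables of a region (slopes 0.46 in CA1 and 0.51 in ACC). Depth per library is unknown.

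Tables were joined by gene ID. The base mean in the CA1 context table was divided by that in the ACC context table, and the log2 ratio was centred on the median of genes with a base mean of at least 50 in both; scaled levels split the centring between the regions. The levels of naive, context and shock libraries were computed from base mean, fold change and numbers of libraries. An error was implied by dividing each log2 fold change by the normal score of its p-value and halving it, which assumes a Wald test; the 95% interval combines both regions. The design named limma for the case of values per library; with 1 mean per region there is no test between regions, and genes were called at 2-fold. The centring and the separation of levels were tested on simulated counts with known region ratios. The implied error and its interval were not tested there, because the simulated p-values were drawn at random. The 39 gene lists held 1250 entries. Genes were named by rule: the 15 highest and 15 lowest ratios at a mean of at least 100, the highest base means listed in 1 region, for each list the 5 highest and 5 lowest members and any past 2-fold, every member of lists with at most 30 entries, related pairs, and genes at the 2-fold line. The members and lists were chosen with earlier results of these data known. Promoters came from RefSeq (GRCm38.p6), transcript length and GC content from GENCODE M21 for 99.4% of counted genes. Python 3.11.15, numpy 2.4.6, pandas 2.3.3, scipy 1.17.1, sklearn 1.9.0 and matplotlib 3.10.9 were used. Some genes of the lists and pairs are counted but not reported here by name. Alternatives were the shock tables, each set of libraries alone, other centring, filters and folds, and removal of a trend on length and GC content.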

Additional observations from a re-analysis of the deposited data

How the results depend on the processing

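The counts of 194 and 246 genes stayed within 1.5 times under the shock tables, each set of libraries, other centring (total scaling gave 214 and 223, the median of reference genes 226 and 213), no filter (267 and 335), a base mean of at least 50 in both regions (142 and 181) and removal of the length and GC trend (171 and 248, of which 169 and 231 were the same genes). Asking for 2-fold in each of the 3 sets of libraries, chosen after seeing the data, gave 132 and 188. A mean level of at least 200 left 113 and 143 because fewer genes were counted; a 1.5-fold line gave 562 and 647 and a 3-fold line 75 and 101. Among named genes past 2-fold, Egr2 changed sign, with -0.93 in naive libraries; so did Wdfy1 (0.14 in naive) and Mir5105 (-0.25 in shock libraries), which were named after their values were seen. The cause was not tested. In shock libraries 411 named genes and list medians moved by more than their SD over the 3 sets and 252 did not. Under every other setting at most 101 moved. The main ratio pools naive and context libraries and mostly lies between them, so this measure makes a move likelier for shock libraries. Nothing is read from that contrast. No paired analysis was possible because the tables hold no value per library, and leaving out single replicates could not be run for the same reason. The means limit the text further: the spread over mice within a region enters only through the deposited p-values, dissection and batch between regions cannot be told apart from region, and levels near a base mean of 10 give ratios that are poorly bounded.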

Other observations

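Gene groups not described above differed between the regions in both directions. Of 60 guidance genes 38 were above 0; Epha6, an Eph receptor, had a log2 ratio of 1.78, Nrp1, a semaphorin receptor, 1.21 and Slit1, a repellent cue, 1.21, while Ephb6 had -1.38. Of 31 counted genes of extracellular matrix and perineuronal nets 3 (9.68%) were at least 2-fold higher in CA1 and 3 (9.68%) in ACC, beside 1.54% and 1.95% of all counted genes; Sparc, a matricellular protein, stood at 1.22, the hyaluronan synthase gene Has3 at 1.21 and the collagen gene Col12a1 at -2.16. Of 27 cadherins 1 (3.7%) was past the line on each side, Pcdh20 (1.82) and Cdh18 (-1.07), beside the same background, so nothing is read from that count. Among growth factors Tgfb2 had 1.30, Bmp3 -1.91 and Bdnf -0.04. Among steroid and retinoid genes Nr3c2 was followed by Hsd11b1 (1.14) and Aldh1a1 (1.11), a retinaldehyde dehydrogenase, and the retinoic acid receptor gene Rarb stood at -1.10. Among 4 counted choroid plexus and ependymal markers, Kl had levels of 261, 298 and 349 in CA1 and 39.1, 48.2 and 40.7 in ACC, and Ttr, transthyretin, had 296, 319 and 263 in CA1 and 119, 65.0 and 48.8 in ACC, while Foxj1 (-0.31) and Rarres2 (-0.38) lay below 0. The list's median was 0.72 and turned to -0.31 with a base mean of at least 50 asked of both regions and to -0.12 with no filter; the part of these markers in other ratios was not tested.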
